A study of Mus musculus with 2 samples.

Results

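The genes described are 10 mouse genes of gut-type peptide signalling. They comprise the peptide hormone genes *Gcg*, *Cck*, *Vip*, *Npy*, *Pyy*, *Ghrl* and *Gal*, the receptor genes *Lepr* and *Oxtr*, and *Pcsk1*, which encodes a convertase that cuts hormone precursors. Members were taken by gene symbol from a table of 18498 rows, and 6 of the 10 had a row. *Gcg*, *Cck*, *Vip* and *Npy* had none. Of the members with a row, 4 had more than 3 estimated reads in either library, and *Pyy* and *Gal* did not. The table compares the circumvallate papillae (CvP), the trench-shaped papillae at the back of the tongue that hold many taste buds, with tongue epithelium without papillae (Epi). Both tissues came from male C57BL/6J mice 12 to 30 weeks old on normal chow, with no treatment named, and RNA of at least 20 mice was pooled into 1 poly(A) RNA library per tissue. For its RT-PCR samples the study's methods state that CvP tissue included epithelium around the taste buds, and for the sequenced pool they do not say. With 1 library per tissue no comparison has a replicate check, and no p-value was calculated.

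Gut hormones of this kind are made by enteroendocrine cells of the intestine and stomach and, for several of them, by neurons. They are translated as precursors, cut after pairs of basic residues by the convertases PC1/3, the product of *Pcsk1*, and PC2, trimmed by carboxypeptidase E and often amidated at a C-terminal glycine before they are stored in dense-core granules. Several have been described in taste buds, where they are studied as signals between taste cells or to the nerve.

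The sequence that the convertase and the amidating enzyme read is shown here for the hormone members, since *Pcsk1* acts on such sites. In 6 of the 7 hormone genes, all but *Ghrl*, the coding sequence holds a codon for glycine followed by 2 codons for basic residues (lysine or arginine). The same codons occur in 36.2% of 22594 coding genes, so they mark no hormone by themselves. Each line gives coding sequence 5′ to 3′ from GENCODE M1 transcripts on NCBIM37 (mm9), with 36 bases before and 18 bases after the 9 capital bases that encode glycine and the basic pair:
Gcg: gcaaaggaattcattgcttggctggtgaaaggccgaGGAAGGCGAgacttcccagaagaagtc
Cck: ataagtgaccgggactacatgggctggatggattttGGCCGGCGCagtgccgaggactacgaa
Vip: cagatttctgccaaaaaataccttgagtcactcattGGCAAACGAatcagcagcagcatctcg
Npy: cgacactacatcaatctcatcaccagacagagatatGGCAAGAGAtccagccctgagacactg
Pyy: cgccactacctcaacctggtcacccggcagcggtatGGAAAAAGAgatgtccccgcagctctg
Gal: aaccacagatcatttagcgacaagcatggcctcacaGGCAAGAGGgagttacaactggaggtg
The capitals lie at chr2:62314883-62314891 on the minus strand for *Gcg* (end of glucagon-like peptide 1), chr9:121399216-121399224 on the minus strand for *Cck* (end of cholecystokinin), chr10:4702919-4702927 on the minus strand for *Vip* (end of PHI, the peptide that shares the precursor of vasoactive intestinal peptide), chr6:49777492-49777500 on the plus strand for *Npy*, chr11:101968358-101968366 on the minus strand for *Pyy* and chr19:3411592-3411600 on the minus strand for *Gal*. All are coding exon. The *Gcg*, *Vip*, *Npy* and *Pyy* windows run across an exon junction. The windows of *Npy* and *Pyy*, neighbours in 1 peptide family, are identical at 42 of 63 bases and 15 of 21 encoded residues.

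Values are RPKM, read counts normalised to exon length and to mapped reads. The lowest steps between values put the depth at about 28391812 mapped reads for CvP and 27925532 for Epi. Reads per gene were estimated from that depth and are approximate, and intervals cover counting error only. Over the 10363 rows with an RPKM of at least 1 in both libraries the median CvP/Epi ratio was 1.31 (log2 0.39), so single ratios are read against that value. Of 12 taste cell markers 11 were above 3-fold in the CvP (summed RPKM 454 against 27.9, with *Pkd2l1* and *Kcnq1* listed at 0 in the Epi), and 7 of 9 keratinized epithelium markers with a row were above 3-fold in the Epi. Of the other tissues a dissection could hold, 9 of the 12 skeletal muscle markers (summed RPKM 7.58 and 68.0 in CvP and Epi) and 4 of 11 salivary gland markers (24.3 and 431) were above 3-fold in the Epi, 2 of the salivary markers were above 3-fold in the CvP, and so were 7 of 14 immune markers (168 and 8.40). These counts take genes at 1 RPKM or more in either tissue. In whole tissue, fewer cells of a type and less RNA per cell cannot be told apart.

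*Pcsk1* and *Oxtr* were the members with clear signal, and both were far higher in the CvP. The 3 hormone members with a row were at 7 reads or fewer in each library, and *Lepr* was low in both tissues. Of the 6 member rows, 5 had a CvP/Epi ratio above 3, where rows of Epi RPKM 0 pass, against 26.1% of 18033 rows above 0 in either library. That count includes *Pyy* and *Gal* at 1 CvP read each. Among the 4 members with more than 3 reads in either library it was 3, against 23.6% of 16296 rows. No member had an Epi/CvP ratio above 3, against 4.70% of rows. Only *Pcsk1* met the criteria of the study, a CvP RPKM above 10 and a ratio above 3, which 2.41% of rows met. The median log2 ratio of the 6 rows, with a pseudocount of 0.1, was 1.03 beside 0.50 for all rows, and the pseudocount understates the difference of low genes.

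**Figure D1:**
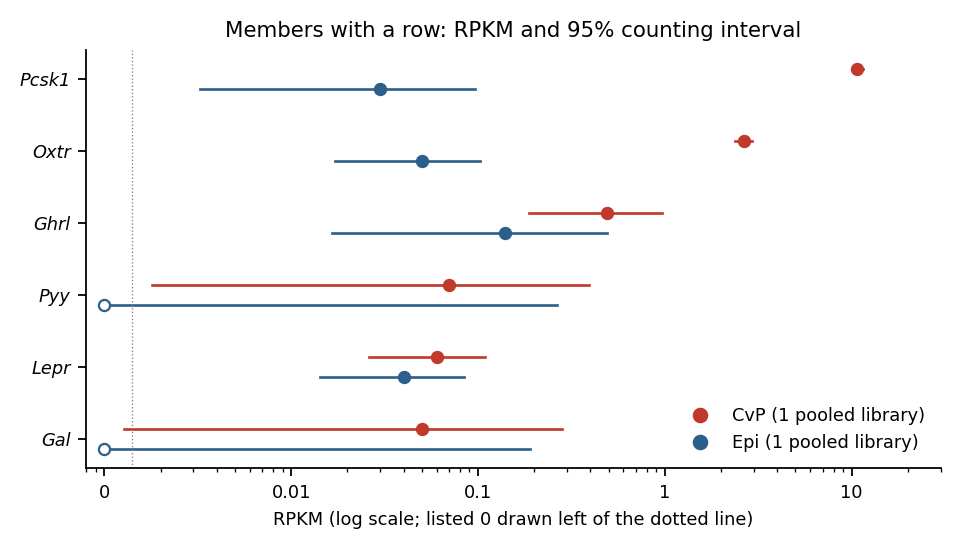
RPKM (log axis) of the 6 members with a row in the CvP (red) and Epi (blue), 1 pooled library each. Bars are 95% counting intervals and open circles are values listed at 0. The intervals are separate for *Pcsk1* (10.7 against 0.03) and *Oxtr* (2.64 against 0.05) and overlap for *Ghrl*, *Pyy*, *Lepr* and *Gal*.

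Among the 3 hormone genes with a row, *Ghrl*, which encodes ghrelin, the stomach hormone that raises food intake, had the highest values. Its row (chr6:113666113-113669874, minus strand) was at 0.49 in CvP and 0.14 in Epi, from 7 and 2 reads. The ratio of 3.50 had a 95% interval of 0.655 to 34.0, which includes 1, so a difference was not detectable at this depth. Divided by the median ratio it was 2.67, under the fold of 3. The listed length of the row, 4.06 kb, is longer than the annotated transcript of 0.527 kb and than the row's own span of 3.76 kb. With the listed length the lower limit of the interval became 1.95. The neighbouring rows *Tatdn2*, 5051 bases away, and *Sec13*, 8172 bases away, were at 19.1 and 34.0 RPKM in the CvP, and reads from outside the gene in this row were not tested. *Mboat4*, the acyltransferase that activates ghrelin, was at 0.37 in CvP and 0.39 in Epi, a ratio of 0.949 (0.472 to 1.84).

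*Pyy* encodes peptide YY, a satiety hormone of the distal gut. Its row (chr11:101967991-101969090, minus strand) was at 0.07 in CvP and 0 in Epi, that is 1 and 0 reads. *Gal* encodes the neuropeptide galanin, and its row (chr19:3409917-3414457, minus strand) was at 0.05 and 0, also 1 and 0 reads. Neither gene was given a fold. By the upper 95% limit, a count of 0 allows an RPKM of up to 0.265 for *Pyy* and 0.189 for *Gal* in the Epi.

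For *Gcg*, the precursor of glucagon and glucagon-like peptide 1, *Cck* (cholecystokinin), *Vip* (vasoactive intestinal peptide) and *Npy* (neuropeptide Y), no row carried the symbol. No row of another name overlapped their annotated loci either, at chr2:62312587-62321707, chr9:121398943-121404807, chr10:4698927-4707323 and chr6:49772709-49779506. Their levels were not analysed here. A missing row is not a value of 0: the table lists 465 rows at 0 in both libraries, and 26.0% of 22594 protein-coding symbols of GENCODE M1 have no row.

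Other peptide genes reached higher levels than *Ghrl*, *Pyy* and *Gal*, the hormone members with a row. Of 40 further ligand genes 25 had a row, and 8 reached a level of 1 RPKM or more in either library. Among those 8, 3 were above 3-fold in CvP and 1 in Epi, against 15.9% and 1.96% of 12549 rows with the same minimum. Their median log2 ratio was 0.96, beside 0.50 for all such rows. A gene that reaches the minimum in 1 tissue alone must differ between tissues, so these counts only describe the rows.

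*Calca*, which encodes calcitonin and the neuropeptide CGRP, was at 10.7 RPKM in the CvP, about 301 reads, and 0 in the Epi. It exceeded the Epi at least 98.6-fold. *Calcb*, which encodes the closely related second CGRP, was at 11.4 in CvP and 0.71 in Epi, a ratio of 16 (10.1 to 27.0). The listed length of the *Calcb* row, 12.35 kb, is longer than the annotated 0.962 kb and than the row's own span of 4.72 kb. For *Calca* the listed length is 2.22 kb and the annotated length 0.992 kb. The treatment of reads that match both genes is not given in the sources used here, so the split between the pair is uncertain. *Apln*, the gene of the vascular peptide apelin, was at 1.91 and 0.13, a ratio of 14.7 (8.33 to 31.2). *Nmu*, which encodes the gut and brain peptide neuromedin U, went the other way, at 15.5 in CvP and 78.5 in Epi, a ratio of 0.197 (0.175 to 0.220). Its exons share 55 bases with a gene on the opposite strand. *Npff*, a neuropeptide gene, was at 2.92 and 1.40, and *Adm* (adrenomedullin) was at 1.58 and 1.35.

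Many of these peptides are also made by neurons, so a list of 19 nerve and ganglion genes is given beside them. Of its 17 genes with a row, 5 reached an RPKM of 1, of which *Uchl1* (15 against 0), *Snap25* (11.1 against 0), *Nefl* (2.32 against 0) and *Ret* (2.79 against 0.14) were above 3-fold in the CvP, and *Tubb3* (4.58 against 40.4) was above 3-fold in the Epi. Taste cells also express *Uchl1* and *Snap25*. The summed RPKM of the list came to 38.3 for CvP and 40.7 for Epi. Below that minimum, *Elavl4* (78 reads against 0), *Chat* (49 against 0), *Nos1* (45 against 4), *Th* (26 against 3) and *Elavl3* (20 against 0) had more reads in the CvP. *Nefm* was at 5 reads against 0 and *Phox2a* at 3 against 4. *Gap43* was at 0 in both, and *Prph*, *Stmn2*, *Dbh* and *Slc18a3* were at 1 or 2 reads in CvP and 0 in Epi. The part of nerve RNA in the CGRP gene values was not tested.

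**Figure D2:**
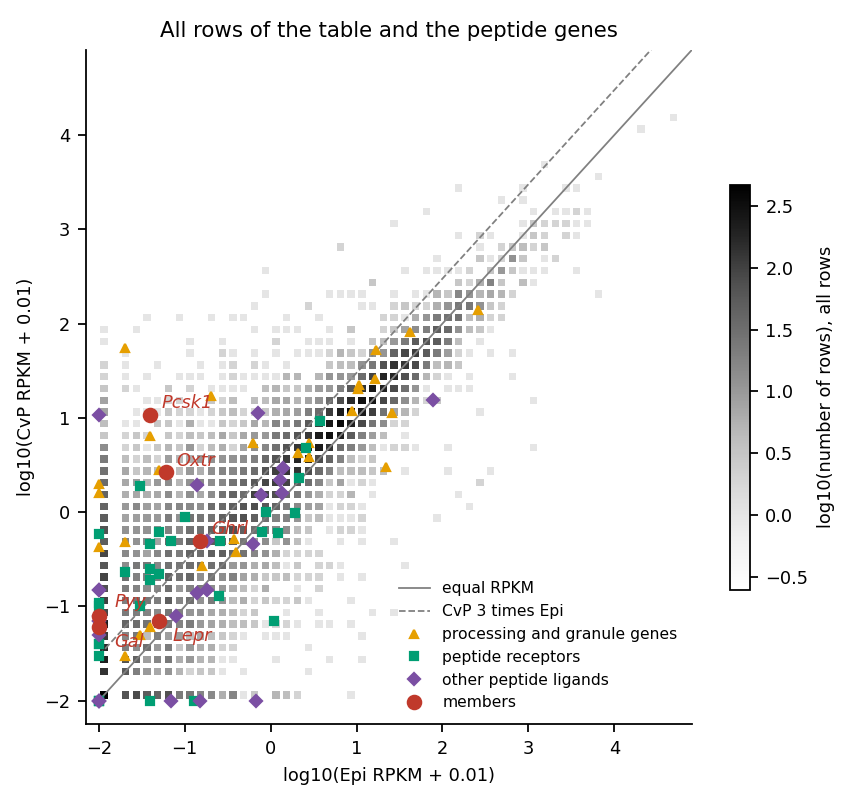
RPKM of all 18498 rows, as log10(RPKM + 0.01), with Epi on the x axis and CvP on the y axis. Grey squares are shaded by the number of rows, the solid line marks equal RPKM and the dashed line a CvP value 3 times the Epi value. *Pcsk1* and *Oxtr* lie far above the dashed line, and *Lepr*, *Pyy* and *Gal* lie in the corner of low values.

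*Oxtr*, the receptor of the hormone oxytocin, was the member receptor with clear signal. Its row (chr6:112423678-112439802, minus strand) was at 2.64 in CvP and 0.05 in Epi, about 342 and 6 reads. The CvP interval was 2.36 to 2.93. The ratio was 52.8 (25.5 to 154), or 40.2 divided by the median ratio. Its CvP level exceeded that of 44.6% of all rows, so the gene was of middle rank in the papillae. The listed length of 4.95 kb is close to the annotated 4.57 kb. *Oxt*, the gene of its ligand, was at 0 in both libraries. *Cav3*, a row 812 bases from *Oxtr*, was at 0 in CvP and 0.16 in Epi.

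*Lepr*, the receptor of the fat hormone leptin, was near the limit of these libraries in both tissues. Its row (chr4:101390012-101487959, plus strand) was at 0.06 in CvP and 0.04 in Epi, about 9 and 6 reads. The ratio of 1.5 had an interval of 0.469 to 5.04, so no difference was detectable. The interval does not exclude a difference of up to 5.04-fold. *Lep*, the leptin gene, was at 0.04 and 0, at 4 reads and none, and the counting intervals of both libraries overlap.

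Of 13 genes of leptin signalling, 12 reached an RPKM of 1, and none of them was above 3-fold in either direction. Their median log2 ratio was 0.33, beside 0.50 for all rows of that minimum. *Leprot*, whose row lies 58049 bases from that of *Lepr* and whose protein regulates leptin receptor at the cell surface, was at 23.5 in CvP and 14.02 in Epi, a ratio of 1.67 (1.53 to 1.84). *Stat3*, the transcription factor downstream of the receptor, was at 35.8 and 17.9, a ratio of 2.003 (1.92 to 2.09). The kinase gene *Jak2* was at 16.4 and 7.36, and the feedback inhibitor *Socs3* at 7.50 and 2.90. The phosphatase genes *Ptpn1* (19.7 and 20.6) and *Ptpn11* (19.3 and 20.0), and *Leprotl1* (23.1 and 23.7), were nearly equal in both. These genes serve many cytokine receptors, and all were far above *Lepr* itself per length of transcript.

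Receptors of the member hormones were low, and those with a higher CvP value were mostly at few reads. *Ppyr1*, the Y4 receptor for peptides of the NPY, PYY and pancreatic polypeptide family, was at 0.87 in CvP and 0.09 in Epi, about 84 and 9 reads, with a ratio of 9.67 (4.61 to 20.8). *Npy1r* was at 0.22 and 0.01, 19 reads against 1, with a ratio of 22.0 (2.97 to 776). *Vipr2* was at 0.18 and 0.03, a ratio of 6.00 (1.61 to 29.7). The GLP-1 receptor gene *Glp1r* was at 0.24 and 0.03, 10 reads against 1, a ratio of 8.00 (1.40 to 427). These 4 intervals lay above 1, while the Epi values rest on 9 reads or fewer.

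*Glp2r*, the receptor of glucagon-like peptide 2, differed in the other direction, at 0.59 in CvP and 1.2 in Epi, a ratio of 0.492 (0.375 to 0.649). *Vipr1* was at 1.00 and 0.88 and the galanin receptor gene *Galr2* at 0.60 and 0.79, and both intervals included 1. The ratio of *Vipr1* was 1.14, and fell below 1, to 0.866, when divided by the median ratio. *Galr1* (0.10, 8 reads), *Cckar* (0.07, 6 reads) and *Cckbr* (0.05, 4 reads) were at 0 in the Epi, and for all 3 the counting intervals of both libraries overlap. *Gcgr* and *Galr3* were at 1 read in the CvP, and *Npy5r* was at 0 in both. No row carried *Npy2r*, *Npy6r* or *Ghsr*, the ghrelin receptor.

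Of the whole list of 48 peptide receptors, 34 had a row and 8 reached an RPKM of 1, with 1 above 3-fold in each direction, against 15.9% (CvP) and 1.96% (Epi) of all rows at that minimum. The median log2 ratio was 0.14, beside 0.50 for those rows. The opioid receptor gene *Oprd1* was at 1.88 in CvP and 0.02 in Epi, a ratio of 94.0 (28.9 to 879), and the tachykinin receptor gene *Tacr3* at 0.06 and 1.09, a ratio of 0.0550 (0.0184 to 0.115). The highest levels were those of the insulin receptor *Insr* (9.15 and 3.75), the IGF receptor *Igf1r* (4.81 and 2.57) and the CGRP and adrenomedullin receptor *Calcrl* (2.30 and 2.11).

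**Figure D3:**
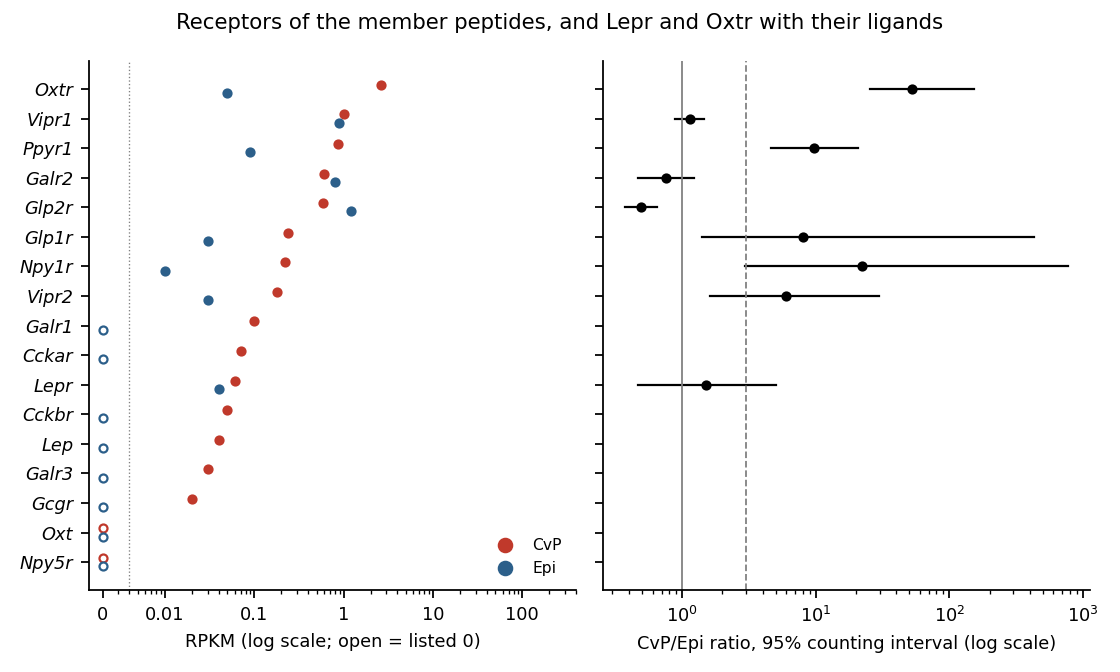
RPKM in CvP and Epi (left, log axis, open circles at 0) and CvP/Epi ratio with its 95% counting interval (right, log axis) for receptors of the member hormones, for *Lepr* and *Oxtr* and for their ligands. No ratio is drawn where a library had no read, the solid line is a ratio of 1 and the dashed line of 3. Of the receptor genes shown, only *Oxtr* and *Vipr1* reached a CvP RPKM of 1.

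*Pcsk1* was the member with the highest level and the largest difference. Its row (chr13:75227435-75269946, plus strand) was at 10.7 in CvP and 0.03 in Epi, about 814 and 2 reads. The CvP interval was 9.99 to 11.5, and the level exceeded that of 71.6% of all rows. The ratio was 357 with an interval of 110 to 3311. As the Epi value has 2 decimals, rounding alone allows a ratio of 306 to 428. The ratio was 272 when divided by the median ratio. The listed length of the row, 5.08 kb, is 1.90 times the annotated 2.68 kb. The nearest rows, *Cast* and *Mir682*, lay 282066 and 512548 bases away. In GENCODE M1 none of the 10 members shares an exon base with another gene.

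The promoter of *Pcsk1* is printed because its gene carries the largest difference. The line gives the 250 bases before the RefSeq start on GRCm38.p6, chr13:75089607-75089856 on the plus strand, with motif matches on either strand in capitals:
Pcsk1: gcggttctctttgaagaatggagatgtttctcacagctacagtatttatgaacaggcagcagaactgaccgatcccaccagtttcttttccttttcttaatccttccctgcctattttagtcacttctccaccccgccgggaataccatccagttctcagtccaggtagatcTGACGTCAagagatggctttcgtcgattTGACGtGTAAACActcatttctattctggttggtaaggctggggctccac
Both strands were searched. TGACGTCA, the cAMP response element, occurred 1 time, 78 to 71 bases before the start, and in 1.55% of 32851 promoter windows of this length. Its first part, TGACG, occurred 3 times, 2 of them inside the full element, and in 17.8% of windows. The forkhead letters TGTTTAC occurred 1 time, on the minus strand 44 to 38 bases before the start, and in 3.17% of windows. The E-box CAGCTG, found in 13% of windows, had no match. The same window of *Oxtr* held none of the 4. A match is a run of letters, and binding was not measured here.

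Of the convertases, *Pcsk6* and *Pcsk7* were near *Pcsk1* in CvP level, and *Furin* was higher. *Furin* was at 25.8 in the CvP, *Pcsk7* at 11.9 and *Pcsk6* at 11.3, and the intervals of *Pcsk7* (11.3 to 12.6) and *Pcsk6* (10.7 to 11.9) overlap that of *Pcsk1*. In the Epi these 3 were at 16.3, 8.86 and 26.0, so that only *Pcsk1* of the 4 was near 0 there. *Pcsk2*, the other convertase of neuroendocrine granules, was at 0.02 and 0.01, or 3 reads and 1. *Pcsk1n*, the inhibitor of PC1/3, was at 2 reads and 1. *Pcsk4* (0.51 and 0.37) and *Pcsk5* (0.26 and 0.15) were low.

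The enzymes that act after the convertase were expressed in both tissues. *Cpe*, which encodes carboxypeptidase E, was at 80.9 in CvP and 41.6 in Epi, a ratio of 1.94 (1.85 to 2.04). *Pam*, the amidating enzyme that acts on the glycine shown above, was at 20.2 and 10.4, also a ratio of 1.94 (1.81 to 2.09). Both ratios were 1.48 when divided by the median ratio. *Qpct*, which forms N-terminal pyroglutamate, was at 3.04 in CvP and 21.8 in Epi, a ratio of 0.140 (0.118 to 0.164). Its relative *Qpctl* was at 5.37 and 2.80.

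Granule genes were mostly higher in the CvP. *Scg5* encodes 7B2, the chaperone of PC2, and was at 6.49 in CvP and 0.03 in Epi, a ratio of 216 (39.0 to 8702). The granins *Chgb* (1.96) and *Scg3* (1.60) were at 0 in the Epi and at least 49.9- and 32.9-fold higher. *Chga*, which encodes chromogranin A, was at 5.39 and 0.61, a ratio of 8.84 (6.13 to 13.2). *Cadps* (2.76 and 0.04) and *Cadps2* (17.1 and 0.19), which prime granules for release, had ratios of 69 (32.0 to 193) and 89.7 (60.4 to 136). *Scg2* was at 0.42 and 0, and *Vgf* was at 4 reads against 2.

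Peptide-degrading enzymes varied. *Mme*, which encodes neprilysin, was at 55.1 in CvP and 0.01 in Epi, about 6634 reads against 1, a ratio of 5511 (1171 to 257764). *Ece1* was at 52.3 and 16.7, a ratio of 3.13 (2.98 to 3.28), or 2.38 when divided by the median ratio. *Dpp4*, which inactivates GLP-1, was at 4.22 and 2.10, and *Ide* (insulin-degrading enzyme) was at 139 and 256. Over the list of 28 processing and granule genes, 27 had a row and 19 reached an RPKM of 1, of which 8 were above 3-fold in CvP and 1 in Epi, against 15.9% and 1.96% of all rows at that minimum. The median log2 ratio was 0.97, beside 0.50 for those rows. The taste, immune and nerve markers given above also differed between the libraries, and their part in these values was not tested.

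**Figure D4:**
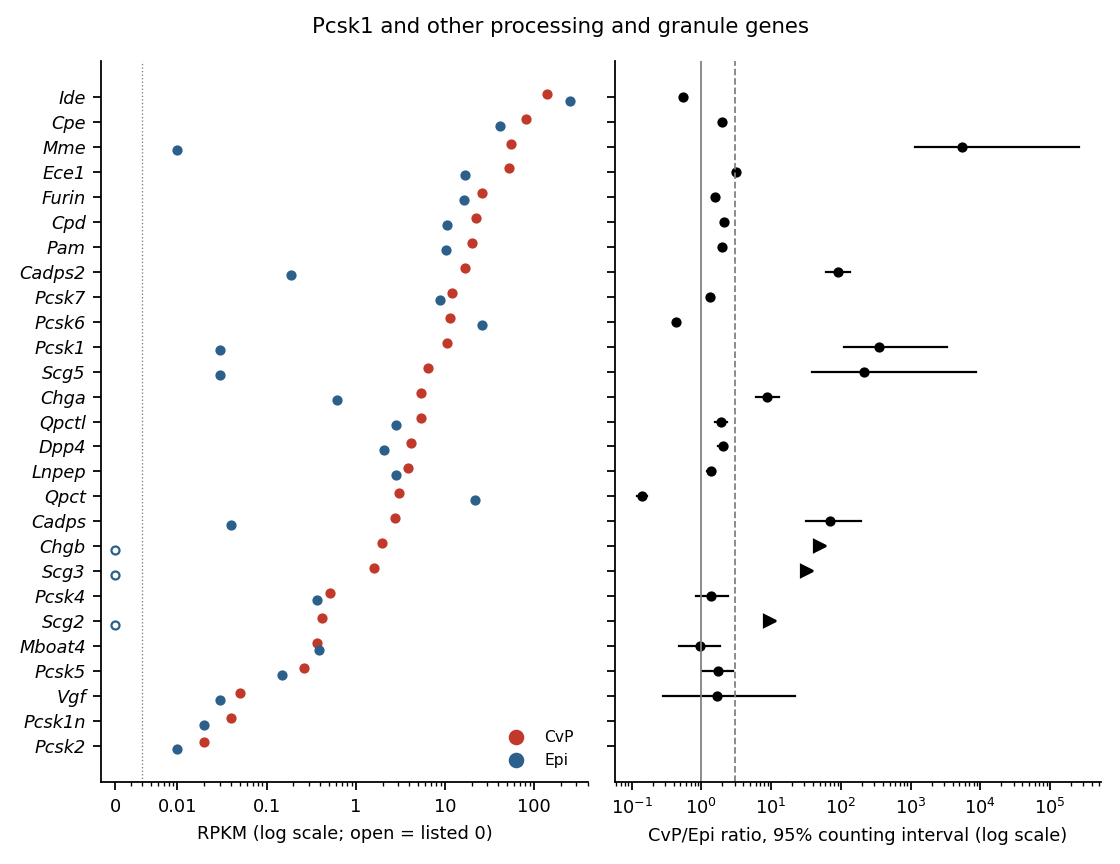
RPKM in CvP and Epi (left, log axis, open circles at 0) and CvP/Epi ratio with its 95% counting interval (right, log axis) for *Pcsk1* and processing and granule genes, in order of CvP RPKM. Triangles are lower bounds where the Epi had no read, and no ratio is drawn where both libraries had at most 3 reads. *Pcsk1* and *Scg5* have adjacent CvP levels and overlapping ratio intervals, while *Furin*, *Cpe* and *Pam* stay below a ratio of 3.

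The rows most like *Pcsk1*, by distance in log2(RPKM + 0.1) over the 2 libraries, were *Gcnt3* (11.4 in CvP and 0.02 in Epi, distance 0.14), *Slc39a8* (11.6 and 0.04, distance 0.16) and *Pls1* (9.67 and 0.04, distance 0.18). With 2 libraries this says only that both values were close.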

How the data were processed

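RNA of the circumvallate papillae (CvP) and of tongue epithelium without papillae (Epi) was measured in 1 pooled library each. The authors made TruSeq libraries of poly(A) RNA, mapped the reads with Bowtie (version 0.12.7 in the submitters' processing notes) to mm9 and deposited RPKM values from ERANGE. Strand use and the treatment of reads with several matches are not given in the sources used here. The deposited CvP/Epi ratio column was not used.

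From the RPKM values, CvP/Epi ratios were calculated without a pseudocount. Depth was read from the worth of 1 read (0.352 RPKM in CvP and 0.358 in Epi) in 163 rows of 0.1 kb. Reads per gene came from that depth and a length, either as listed or that of the gene's longest GENCODE M1 coding transcript, whichever was shorter, because reads from listed lengths summed to 177% and 200% of the mapped reads, against 81.9% and 89.7%. Ratios carry exact (Clopper-Pearson) and levels exact Poisson 95% intervals. With 0 Epi reads the ratio is a bound against 3 reads per library, given only where the intervals of both levels are separate and not counting the error of the CvP reads, and with at most 3 reads in both no fold is given. The depth and interval steps were tested on simulated data. That simulation drew reads from the listed lengths and converted them back with the same lengths. It therefore could not test the choice of length behind the estimated reads and intervals.

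Members and gene lists were chosen with earlier results of these data known. The rule for named genes takes all members, the 4 genes with the highest CvP and the 3 with the highest Epi RPKM of each list, those with RPKM above 10 in 1 tissue and a ratio above 3 in its favour, receptors and ligands of members, and the 3 rows most like *Pcsk1*. Other list genes, such as *Apln*, *Tacr3*, the remaining convertases, the granins and the nerve markers below 1 RPKM, were chosen after their values were seen. Promoter sequence is from RefSeq (all 10 members matched). The alternatives were pseudocounts, filters, folds, minimums and scalings. Python 3.11.15, numpy 2.4.6, pandas 2.3.3, scipy 1.17.1 and matplotlib 3.10.9 were used.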

Additional observations from a re-analysis of the deposited data

How the results depend on the processing

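No paired analysis was possible because there was 1 library for each tissue. The count of members above a CvP/Epi ratio of 3 (5 of 6) was 2 with 0.1 added to each value, 2 with 1 added, 2 among rows with an RPKM of at least 1, and 3 among rows with more than 3 reads. *Pcsk1* and *Oxtr* are the 2. With a minimum CvP RPKM of 1 in place of 10, 2 members met both criteria in place of 1. The median log2 ratio of the members (1.03) was 0.24 with a pseudocount of 1, 5.28 over the 2 members with an RPKM of at least 1, 0.64 with ratios divided by the median ratio, and 1.71 with RPKM rescaled to equal sums. Without the filter on low values, ligands above 3-fold in the CvP numbered 9 in place of 3, receptors 19 in place of 1 and nerve genes 14 in place of 4. With a fold of 2, receptors numbered 2. These filters differ by construction in the rows they count. Of 16 alternative ratios of the 4 members with a ratio, none reversed and 4 moved beyond the counting interval, all by a pseudocount: *Pcsk1* to 83.2 and 11.4, and *Oxtr* to 18.3 and 3.47. In an alternative chosen after seeing the data, reads from listed lengths raised the lower limit of *Ghrl* from 0.655 to 1.95, and the limits of *Pcsk1*, *Oxtr* and *Lepr* stayed on the same side of 1. Depth limits *Ghrl*, *Pyy*, *Gal* and *Lepr*, which have 9 reads or fewer in each library.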

Other observations

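Transcription factors known from the formation of enteroendocrine cells were measured in the same libraries. Of 16 such genes 12 had a row and 6 reached an RPKM of at least 1, of which 5 were above 3-fold in CvP and none in Epi, against 15.9% and 1.96% of all rows at that minimum. *Foxa2*, a forkhead factor of endoderm, was at 18.8 in CvP and 0.06 in Epi, a ratio of 314 (109 to 1029). *Etv1* was at 9.63 and 0.15, *Nkx2-2* at 3.30 and 0, and *Insm1* at 2.51 and 0.03. *Foxa1* was at 10.1 and 7.61, a ratio of 1.33 (1.204 to 1.47). Other genes of the list were near 0. *Neurog3* was at 3 reads, *Neurod1* at 2 and *Pax6* at 1 in the CvP with none in the Epi, *Isl1* was at 2 and 4 reads, and *Fev* and *Lmx1b* were at 0 in both.

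Endothelial genes did not move together. Of 8 genes 6 had a row, and *Vwf* (4.45 and 0.09, ratio 49.4, interval 32.8 to 79.9) and *Tek* (2.49 and 0.07, ratio 35.6, interval 18.7 to 79.3) were above 3-fold in the CvP, while *Pecam1* was at 0.28 and 0.12, *Kdr* at 0.04 and 0.02, *Cdh5* at 0.02 and 0.06 and *Tie1* at 0.03 and 0.14. Among immune genes, the lysozyme gene *Lyz2* was at 132 in CvP and 0.43 in Epi, and the complement gene *C1qb* at 6.08 and 0.57. In the Epi, the lipase *Lipf* (313 against 1.96) and the amylase *Amy1* (80.5 against 0.85), genes of salivary secretion, and the muscle genes *Acta1* (12.9 against 0.86) and *Tnni2* (12.3 against 2.53) were higher. The salivary list did not move as one. *Pigr*, at 12.0 in CvP and 0.54 in Epi, and *Aqp5*, at 6.09 in CvP and 0.69 in Epi, were higher in the CvP.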
